A study of Homo sapiens with 6 samples.

Results

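The genes described here are 10 components and outputs of the NF-kB pathway: the subunit genes NFKB1, NFKB2, RELA and RELB, the inhibitor and feedback genes NFKBIA and TNFAIP3, and the outputs IL1B, IL32, SOD2 and ICAM1. They were taken by gene name from the deposited table, where all 10 of them had a row among 13696 genes. Expression was measured by RNA-seq of poly-A RNA in hTERT RPE-1, a line of human retinal pigment epithelial cells made immortal with telomerase. Pre-dose cells (3 libraries) had received 25 nM camptothecin (CPT) for 1 h and were harvested 24 h after the drug was taken away, and untreated cells (3 libraries) had received none. The titles of all 6 also carry the word Top1, which the labels do not explain. Both groups are the same cell line in the same medium, and camptothecin is an inhibitor that traps topoisomerase 1 on DNA. The comparison asks which transcripts differ 24 h after this low first exposure. The labels do not say whether replicates are separate cultures, so p-values measure the spread between these libraries, which may be technical.

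NF-kB is a family of dimeric transcription factors that cells hold in the cytoplasm until a signal such as a cytokine, a microbial product or DNA damage releases them. RELA usually pairs with p50, the processed product of NFKB1, and is held back by the inhibitor encoded by NFKBIA, whereas RELB pairs with p52, the processed product of NFKB2, in the slower alternative branch. Active dimers switch on NFKBIA and TNFAIP3, whose products end the response, and cytokine, adhesion and survival genes.

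Promoter windows are shown for NFKBIA, NFKB2, IL32 and TNFAIP3, to show a subunit, an output and both feedback genes: NFKBIA, NFKB2 and IL32 are among the genes called without replicate 1, and TNFAIP3, which was not called there, holds 2 separate motif matches. Each window runs from 250 bases before to 50 bases after the RefSeq transcription start (build GRCh38.p14), is written 5′ to 3′ on the strand of the gene, and has matches to the kB consensus, the DNA motif bound by NF-kB dimers, in capitals.
NFKBIA promoter, chr14:35404700-35404999, minus strand: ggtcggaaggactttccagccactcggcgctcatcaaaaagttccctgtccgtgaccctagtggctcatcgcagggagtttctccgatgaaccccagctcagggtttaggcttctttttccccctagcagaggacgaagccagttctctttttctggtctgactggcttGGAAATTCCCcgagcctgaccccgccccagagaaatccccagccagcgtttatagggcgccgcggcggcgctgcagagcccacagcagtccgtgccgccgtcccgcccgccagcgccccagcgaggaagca
NFKB2 promoter, chr10:102393860-102394159, plus strand: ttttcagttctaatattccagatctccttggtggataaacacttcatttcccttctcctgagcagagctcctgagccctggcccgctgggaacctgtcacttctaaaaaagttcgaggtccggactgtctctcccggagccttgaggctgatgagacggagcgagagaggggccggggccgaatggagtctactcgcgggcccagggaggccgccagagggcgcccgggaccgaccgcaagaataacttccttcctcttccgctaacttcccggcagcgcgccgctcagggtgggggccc
IL32 promoter, chr16:3065153-3065452, plus strand: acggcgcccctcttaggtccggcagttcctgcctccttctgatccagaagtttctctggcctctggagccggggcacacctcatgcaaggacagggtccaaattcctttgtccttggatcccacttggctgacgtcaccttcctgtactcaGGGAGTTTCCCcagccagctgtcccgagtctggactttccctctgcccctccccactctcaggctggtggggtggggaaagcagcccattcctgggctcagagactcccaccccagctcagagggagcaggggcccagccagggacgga
TNFAIP3 promoter, chr6:137867009-137867308, plus strand: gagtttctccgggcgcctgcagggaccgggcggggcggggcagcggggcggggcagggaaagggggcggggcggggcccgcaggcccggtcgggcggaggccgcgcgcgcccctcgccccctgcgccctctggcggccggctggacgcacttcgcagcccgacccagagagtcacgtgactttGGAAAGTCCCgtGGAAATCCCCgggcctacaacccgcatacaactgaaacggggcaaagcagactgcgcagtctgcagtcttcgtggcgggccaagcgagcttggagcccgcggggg
Of the 10 genes, 9 were matched to a promoter window, and RELB was not. The kB consensus was searched on both strands. It matched at 1 place in NFKBIA, starting 81 bases before the transcription start and lying on the opposite strand as GGGAATTTCC. TNFAIP3 held 2 matches on the opposite strand, GGGACTTTCC and GGGGATTTCC, at 67 and 55 bases before the start. IL32 held 2 matches that overlap on opposite strands, GGGAGTTTCC and GGGAAACTCC, at 99 and 98 bases before the start. NFKB1 held 1 match, GGGAATTTCC, at 49 bases before the start. The windows of NFKB2, RELA, IL1B, SOD2 and ICAM1 held none. The RELA window, chr11:65663808-65664107, lay outside the gene as annotated (65653596 to 65663094). The SOD2 window, chr6:159727335-159727634, lay inside the gene as annotated (159669057 to 159745186). Starts other than the 1 used for each gene were not searched. Over all 27305 promoter windows of the same length, 5.72% held at least 1 match to the consensus. A match describes the letters of the window and is not a measured binding site.

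**Figure D1:**
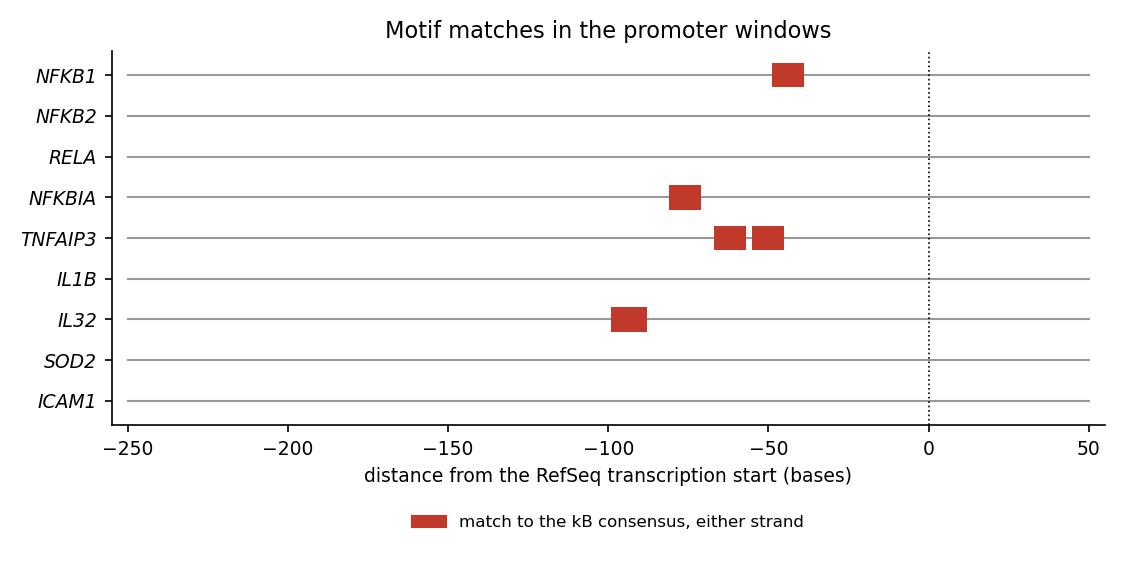
Position of motif matches in the promoter windows of 9 genes, in bases from the RefSeq transcription start (dotted line at 0). Red blocks are matches to the kB consensus on either strand, which lie in NFKB1, NFKBIA, TNFAIP3 and IL32 and between 99 bases before the start and the start itself.

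Effective totals per library lay between 26336942 and 31780392 reads, and a level is given as CPM, the reads of a gene scaled to that total. All 10 genes passed the filter of a mean of 1 CPM over the 6 libraries, which left 13616 genes for the tests. Both replicate 1 libraries stood apart from the others: the first principal component, with 59.4% of the variance, placed pre-dose replicate 1 at -18.0 and untreated replicate 1 at -20.6, and the other 4 libraries between 6.94 and 16.4. The difference of each of the 10 genes is therefore also given without replicate 1. Of 9 markers of retinal pigment epithelium, 3 were measured here (BEST1, MITF and OTX2), with a summed level of 66.9 to 73.5 CPM in pre-dose and 65.4 to 69.3 CPM in untreated libraries, and RPE65, RLBP1, TYRP1, PMEL, TYR and SERPINF1 were not analysed here. Of 12 blood and myeloid markers, 2 were measured (CD68 and CSF1R), summing to 78.2 to 85.6 CPM in pre-dose and 68.4 to 74.9 CPM in untreated libraries. CD68, a lysosomal protein that many cell types make, was the larger share of that sum, and the defining markers PTPRC, CD14, LYZ, ITGAM and SPI1 were not analysed here. Of 6 keratin and epithelial markers, KRT8 and KRT18 were measured, summing to 1296.2 to 1333.9 CPM in pre-dose and 1305.3 to 1439.7 CPM in untreated libraries. The part of these markers in the results was not tested. In bulk RNA, fewer cells that express a gene and less of its RNA per cell cannot be told apart.

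Levels of different genes were compared per kilobase of annotated exon. In both groups RELA was highest, with 15.9 ± 0.831 CPM per kilobase in pre-dose and 16.8 ± 0.670 CPM per kilobase in untreated libraries (SD, n = 3 each). NFKB2, NFKBIA, NFKB1 and SOD2 followed in that order in both groups, and among these top 5 no neighbours overlapped between libraries. NFKB2 averaged 12.5 ± 0.806 CPM per kilobase in pre-dose and 14.2 ± 0.602 in untreated libraries, and NFKB1 7.43 ± 0.0945 and 7.75 ± 0.275 CPM per kilobase in the same order. RELB and the other 4 genes lay lower. RELB averaged 2.18 ± 0.658 CPM per kilobase in pre-dose and 2.97 ± 0.909 in untreated libraries, and IL1B 2.71 ± 1.02 and 1.81 ± 0.276 CPM per kilobase in the same order. These neighbours overlapped between libraries in both groups, with IL1B above RELB in the mean of pre-dose and below it in the mean of untreated libraries. IL32, TNFAIP3 and ICAM1 were lowest. ICAM1 averaged 0.351 ± 0.146 CPM per kilobase in pre-dose and 0.521 ± 0.254 in untreated libraries. IL32 and TNFAIP3 overlapped between libraries in both groups. TNFAIP3 and ICAM1, and likewise IL1B and IL32, did so in untreated libraries. Exon length is that of all annotated transcripts together, which is 16493 bases for SOD2, so a gene with long minor transcripts has its level understated on this scale.

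**Figure D2:**
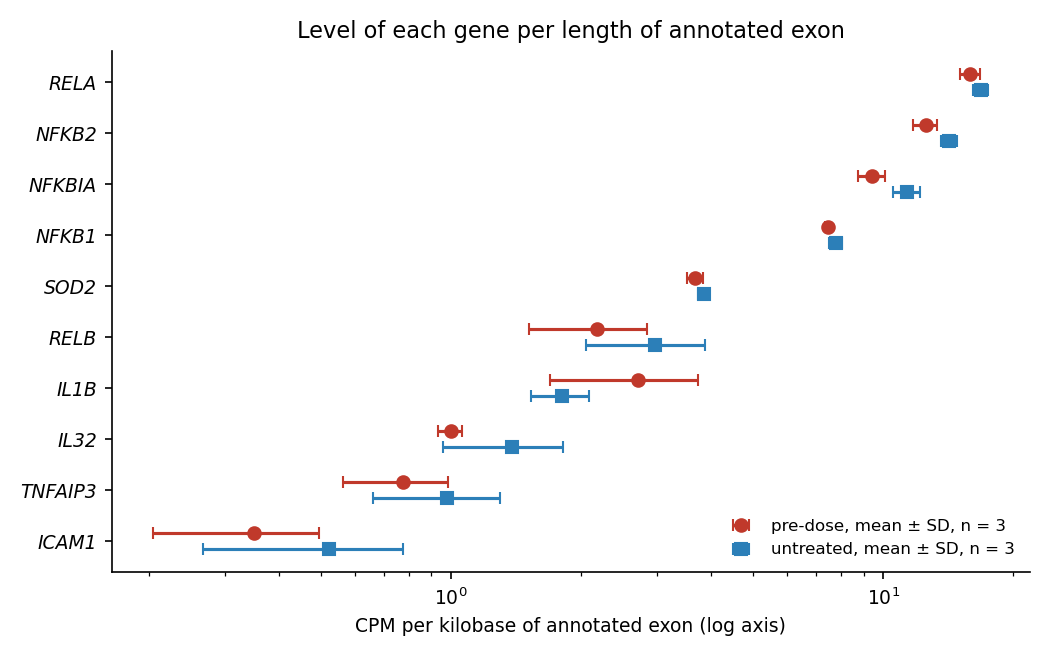
Level of each gene in CPM per kilobase of annotated exon (log axis), as mean and SD of 3 libraries, pre-dose in red and untreated in blue. RELA, NFKB2, NFKBIA and NFKB1 lie highest and ICAM1 lowest, at 0.351 CPM per kilobase in pre-dose and 0.521 in untreated libraries.

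Across the 6 libraries 9 of the 10 genes had a lower mean after the pre-dose and IL1B had a higher one. In limma-trend on log2(CPM + 1), fitted over all 13616 genes, 0 of the 10 passed an adjusted p of 0.05, where 0% of all genes did, and each had an adjusted p of 1.00. At an unadjusted p of 0.05, 2 of the 10, NFKBIA and NFKB2, were lower, where 0.808% of all genes were lower, 1.25% higher and 2.06% different in either direction. In deviations from the group means across genes, same-numbered libraries correlated at 0.66, 0.45 and 0.18 for replicates 1, 2 and 3. Libraries of replicates 2 and 3 with different numbers also did, at 0.52 and 0.28, so their pairing is an assumption. With the replicate number as a block, 7 of the 10 reached an unadjusted p of 0.05, where 10.6% of all genes did (5.40% lower, 5.20% higher). They were NFKBIA, NFKB2, RELB, TNFAIP3, IL32 and ICAM1 as lower and IL1B as higher, and 0 passed after adjustment, the smallest adjusted p among the 10 being 0.270. In replicates 2 and 3 alone, with 2 libraries in each group, 4 of the 10 fell (NFKB2, RELB, NFKBIA and IL32) and 1 rose (IL1B) at an adjusted p of 0.05, where 3.47% of all genes fell and 2.89% rose. With library quality weights estimated gene by gene, 2 fell (NFKB2 and NFKBIA) and 1 rose (IL1B), where 0.595% of all genes fell and 0.793% rose. That estimate was chosen after limma's default one, which did not converge and gave pre-dose replicate 3 a weight of 28.8, against 0.160 to 2.62 for the other 5 libraries, had been seen. The default weights called 8 of the 10 as lower and 1 as higher, where 13.1% of all genes were lower and 14.4% higher, and those calls are not used. The authors' deposited table has NFKB2, NFKBIA and IL32 as lower and IL1B as higher at an adjusted p of 0.05, where 1.45% of its genes are lower and 1.61% higher. Across genes its fold changes correlated at 0.688 with the plain group differences of the deposited log2 values. The authors' fit is therefore not the plain group difference, and it was not reproduced. No such correlation was computed for the fits without replicate 1 or with library quality weights. The genes were chosen with these results known, so the shares describe them and do not test them.

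**Figure D3:**
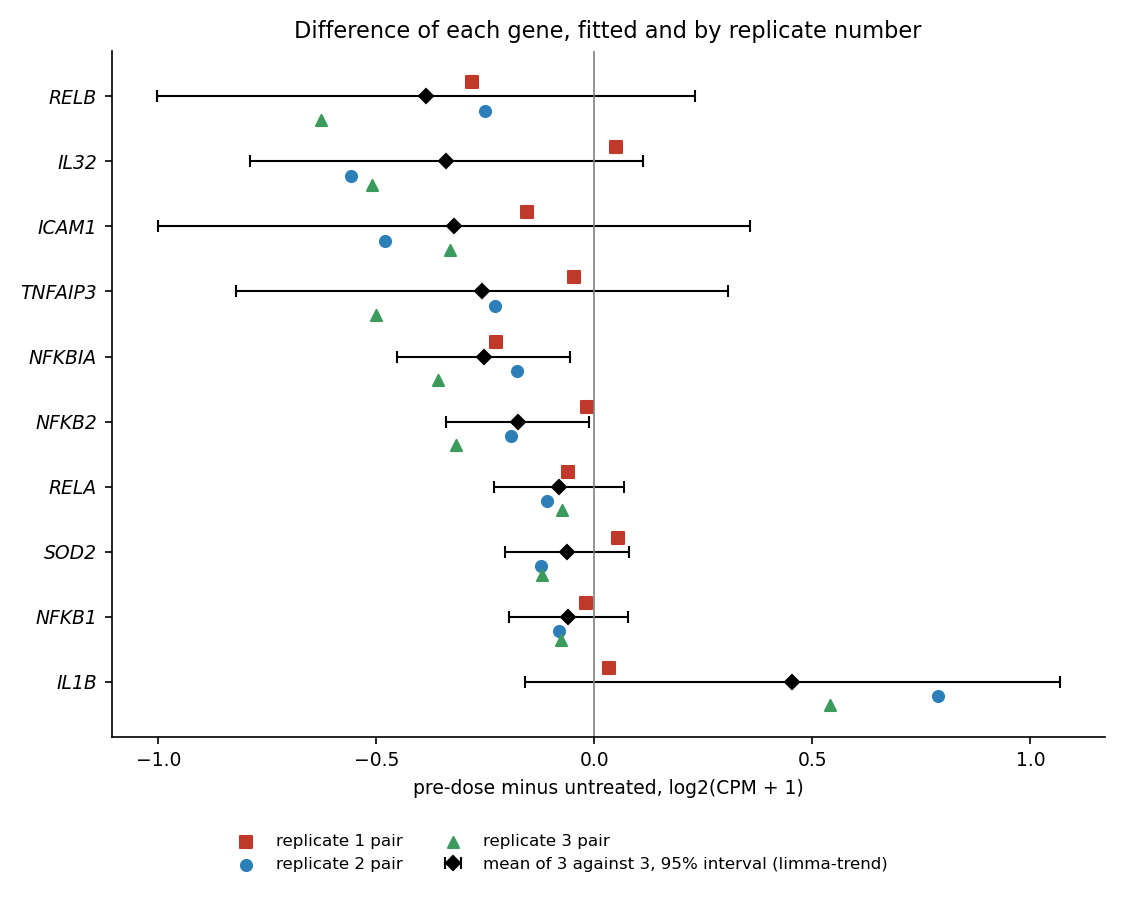
Pre-dose minus untreated difference of each gene on the log2(CPM + 1) scale, with the limma-trend estimate over 3 against 3 libraries and its 95% interval (black) and the difference within each replicate number (coloured). Only the intervals of NFKBIA and NFKB2 exclude 0, and IL1B is the gene with a difference above 0, 0.45.

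NFKBIA encodes IkB-alpha, which binds RELA dimers and masks their nuclear import signal, and is itself an NF-kB target. It lies on chromosome 14 from 35401511 to 35404749 (GRCh38, GENCODE 29). NFKBIA had 21.0, 24.2 and 21.9 CPM in pre-dose replicates 1, 2 and 3, against 24.7, 27.4 and 28.4 CPM in untreated replicates 1, 2 and 3. All pre-dose libraries lay below all untreated ones, as they did for 3.19% of the genes tested (and the reverse for 3.36%), and NFKBIA was lower in every pair. Its mean was 22.4 ± 1.62 CPM in pre-dose and 26.9 ± 1.91 CPM in untreated libraries (SD, n = 3 each). The log2 difference was -0.25 (SE 0.085, 95% interval -0.45 to -0.055), and NFKBIA ranked 62 of 13616 genes by its unadjusted p of 0.0191 in limma-trend. The pairs differed by -0.23, -0.18 and -0.36 for replicates 1, 2 and 3. The replicate 1 pair lay between the other two, and without replicate 1 its difference was -0.27 (adjusted p = 0.0351 in limma-trend). The authors' deposited table gives -0.32 with an adjusted p of 0.0327.

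TNFAIP3, on chromosome 6 from 137867188 to 137883312, encodes A20, an enzyme that removes and adds ubiquitin chains to shut off signalling upstream of the IkB kinase. TNFAIP3 had 2.97, 5.06 and 3.68 CPM in pre-dose replicates 1, 2 and 3, against 3.11, 6.09 and 5.62 CPM in untreated replicates 1, 2 and 3. The groups overlapped, and both replicate 1 libraries were the lowest of the 6. Behind these values stood 94 to 152 estimated reads in pre-dose and 91 to 170 in untreated libraries. Its log2 difference was -0.26, between 95% limits of -0.82 and 0.31 (unadjusted p = 0.317 in limma-trend). By pair it was -0.047, -0.23 and -0.50, and without replicate 1 it was -0.36 (adjusted p = 0.149 in limma-trend).

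NFKB2, on chromosome 10 from 102394110 to 102402529, encodes the p100 precursor, which restrains RELB until it is cut to p52. NFKB2 had 59.8, 56.2 and 52.6 CPM in pre-dose replicates 1, 2 and 3, against 60.6, 64.3 and 65.8 CPM in untreated replicates 1, 2 and 3. All pre-dose libraries lay below all untreated ones, as they did for 3.19% of the genes tested, although in replicate 1 the libraries were close. The mean was 56.2 ± 3.62 CPM in pre-dose and 63.5 ± 2.70 CPM in untreated libraries (SD, n = 3 each), with a log2 difference of -0.18 (SE 0.070, 95% interval -0.34 to -0.011; unadjusted p = 0.0393 in limma-trend). By pair the difference was -0.017, -0.19 and -0.32, and without replicate 1 it was -0.25 (adjusted p = 0.0104 in limma-trend). The authors' deposited table gives -0.28 with an adjusted p of 0.0295.

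RELB, on chromosome 19 from 45001430 to 45038198, encodes the transactivating partner of p52. RELB had 4.61, 8.60 and 6.61 CPM in pre-dose replicates 1, 2 and 3, against 5.82, 10.4 and 10.8 CPM in untreated replicates 1, 2 and 3. Every pair was lower after the pre-dose, with differences of -0.28, -0.25 and -0.63, while the groups overlapped and both replicate 1 libraries were the lowest of the 6. Its log2 difference was -0.39 with 95% limits of -1.004 and 0.23 (unadjusted p = 0.183 in limma-trend). With the replicate block the same difference had an SE of 0.098, against 0.26 without it, and an unadjusted p of 0.00392. Without replicate 1 the difference was -0.44 (adjusted p = 0.0451 in limma-trend), and the authors' deposited table gives -0.60 with an adjusted p of 0.0564.

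NFKB1 and RELA, the canonical pair, stood within narrow limits. NFKB1, on chromosome 4 from 102501329 to 102617302, encodes the p105 precursor of p50. It had 45.9, 46.5 and 47.1 CPM in pre-dose replicates 1, 2 and 3, against 46.5, 49.3 and 49.7 CPM in untreated replicates 1, 2 and 3. The highest pre-dose library was above the lowest untreated one, so the groups overlapped. The log2 difference of NFKB1 was -0.059, between 95% limits of -0.20 and 0.077, and -0.079 without replicate 1 (adjusted p = 0.351 in limma-trend). RELA, on chromosome 11 from 65653596 to 65663094, encodes p65, the main transactivating subunit. It had 91.9, 83.7 and 84.5 CPM in pre-dose replicates 1, 2 and 3, against 95.9, 90.3 and 89.0 CPM in untreated replicates 1, 2 and 3. RELA was lower in every pair, with differences of -0.061, -0.11 and -0.074 on the log2(CPM + 1) scale, but stood higher in both replicate 1 libraries than in the other 4. Its log2 difference was -0.081, between 95% limits of -0.23 and 0.068, and -0.092 without replicate 1 (adjusted p = 0.198 in limma-trend).

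IL1B, the gene for the secreted cytokine interleukin-1 beta, was the single gene of the 10 with a higher mean after the pre-dose. It lies on chromosome 2 from 112829751 to 112836903. IL1B had 4.80, 10.7 and 9.67 CPM in pre-dose replicates 1, 2 and 3, against 4.67, 5.79 and 6.34 CPM in untreated replicates 1, 2 and 3. Pre-dose replicates 2 and 3 were above every untreated library and pre-dose replicate 1 was below untreated replicates 2 and 3. Estimated reads were 152, 323 and 290 in pre-dose and 137, 152 and 192 in untreated libraries, in the order of the replicates. The mean was 8.40 ± 3.16 CPM in pre-dose and 5.60 ± 0.854 CPM in untreated libraries (SD, n = 3 each). Its log2 difference was 0.45, between 95% limits of -0.16 and 1.07 (unadjusted p = 0.124 in limma-trend). By pair it was 0.033, 0.79 and 0.54. Without replicate 1 it was 0.66 (adjusted p = 0.00361 in limma-trend), and the authors' deposited table gives 0.66 with an adjusted p of 0.0475. Of the 2 blood and myeloid markers measured, CD68, which many cell types make, was higher in every pre-dose library than in every untreated one. The same held for 3.36% of all genes tested. CD68 averaged 73.7 ± 2.72 CPM in pre-dose and 62.9 ± 4.12 CPM in untreated libraries, and CSF1R 8.80 ± 1.18 CPM in pre-dose and 8.82 ± 2.03 CPM in untreated libraries, with overlap (SD, n = 3 each). Their part in the value of IL1B was not tested.

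IL32, on chromosome 16 from 3065297 to 3082192, encodes a cytokine that human epithelial cells make after inflammatory stimulation. IL32 had 3.00, 3.20 and 3.41 CPM in pre-dose replicates 1, 2 and 3, against 2.87, 5.18 and 5.29 CPM in untreated replicates 1, 2 and 3. Pre-dose libraries were close together, and untreated replicate 1 lay below all of them while untreated replicates 2 and 3 lay above. Estimated reads were 95 to 102 in pre-dose and 84 to 160 in untreated libraries. The fitted value was -0.34 on the log2 scale, within 95% limits of -0.79 and 0.11 (unadjusted p = 0.119 in limma-trend). By pair it was 0.050, -0.56 and -0.51, and without replicate 1 it was -0.53 (adjusted p = 0.0208 in limma-trend). The authors' deposited table gives -0.61 with an adjusted p of 0.0443.

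ICAM1, on chromosome 19 from 10270835 to 10286615, encodes the adhesion receptor to which leukocyte integrins bind. ICAM1 had 0.677, 1.61 and 1.62 CPM in pre-dose replicates 1, 2 and 3, against 0.865, 2.64 and 2.29 CPM in untreated replicates 1, 2 and 3. Each pair was lower after the pre-dose, with differences of -0.15, -0.48 and -0.33, on 21 to 48 estimated reads in pre-dose and 25 to 69 in untreated libraries. The replicate 1 libraries were the lowest of the 6, and the groups overlapped. Its log2 difference was -0.32 with 95% limits of -1.001 and 0.36 (unadjusted p = 0.301 in limma-trend), and -0.41 without replicate 1 (adjusted p = 0.129 in limma-trend). With the replicate block the SE of the difference was 0.13, against 0.29 without it, and the unadjusted p was 0.0319.

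SOD2, on chromosome 6 from 159669057 to 159745186, encodes the manganese superoxide dismutase of mitochondria, a survival gene that NF-kB induces. SOD2 had 63.5, 58.9 and 59.4 CPM in pre-dose replicates 1, 2 and 3, against 61.1, 64.1 and 64.7 CPM in untreated replicates 1, 2 and 3. The pre-dose library was higher in replicate 1 (0.054) and lower in replicates 2 and 3 (-0.12 in both). Its fitted log2 difference was -0.063, within 95% limits of -0.20 and 0.078, and -0.12 without replicate 1 (adjusted p = 0.120 in limma-trend).

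**Figure D4:**
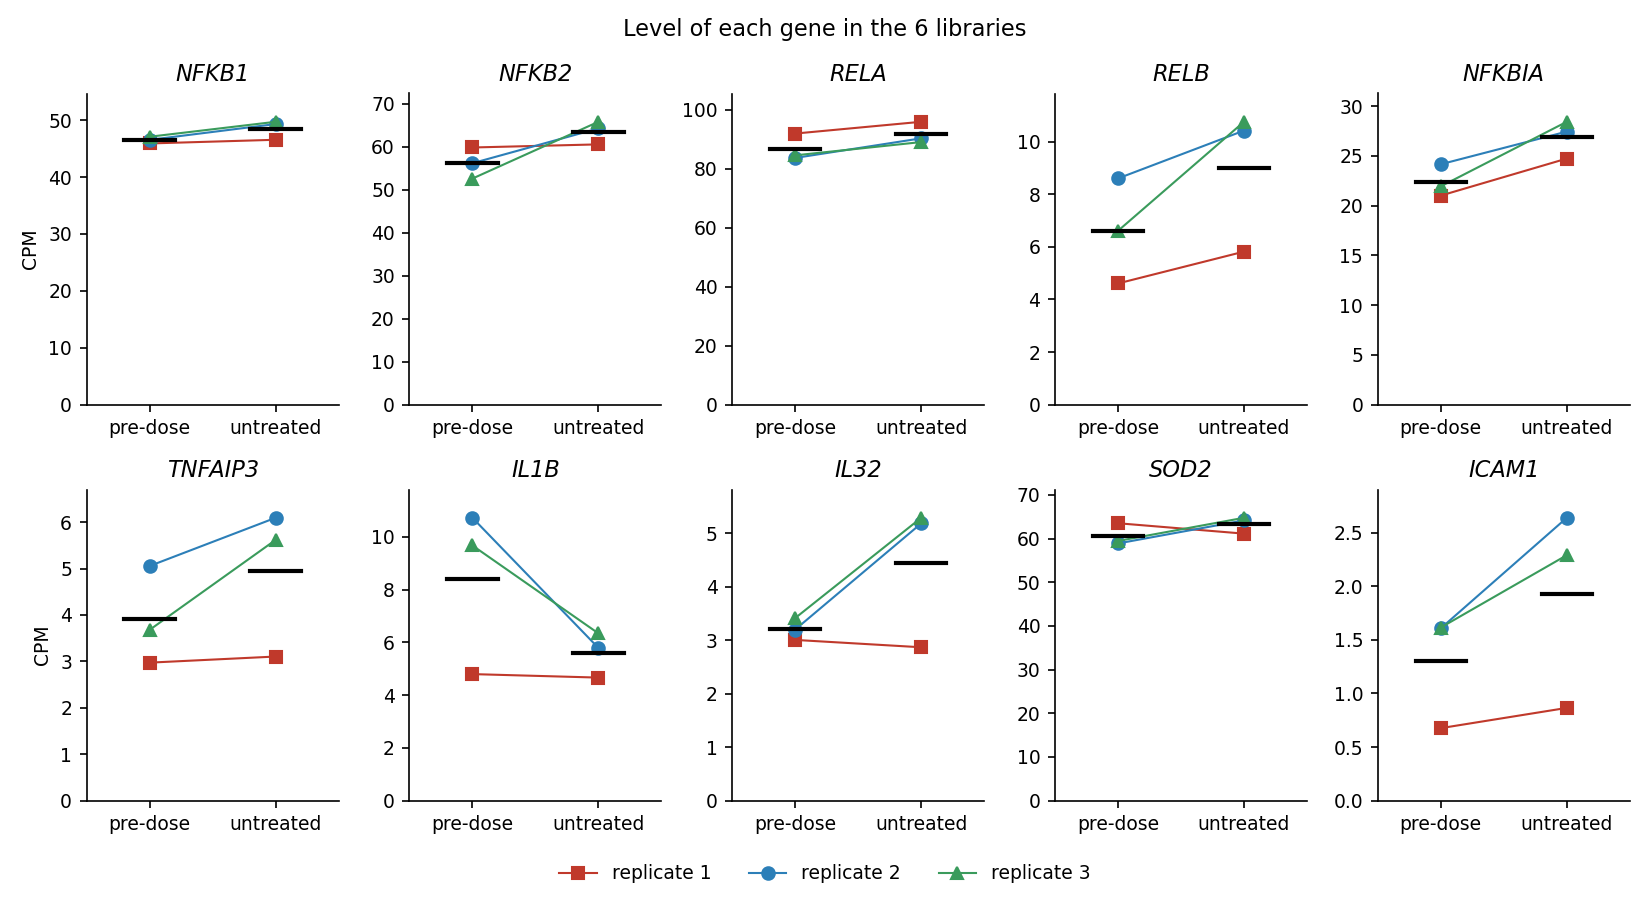
CPM of each gene in the 6 libraries, pre-dose left and untreated right, with lines joining libraries of the same replicate number and black bars at the group means. Both replicate 1 libraries (red squares) lie below all other libraries for RELB, TNFAIP3, IL1B, IL32 and ICAM1, and IL1B is higher in pre-dose replicates 2 and 3 than in any untreated library.

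Set side by side, 7 of the 10 genes were lower in all 3 pairs, as 16.3% of all genes tested were, and IL1B was higher in all 3 pairs, as 15.6% were. IL32 and SOD2 were higher in the replicate 1 pair and lower in both others. In the replicate 2 and 3 pairs alone 9 of the 10 were lower, where 32.4% of all genes were. The median difference over the 10 genes was -0.033, -0.18 and -0.32 in the replicate 1, 2 and 3 pairs, against medians of -0.0039, -0.0024 and 0.0012 over all genes tested. RELB, TNFAIP3, IL1B, IL32 and ICAM1 were lower in both replicate 1 libraries than in the other 4, as 28.3% of all genes were, and RELA was higher in both, as 27.2% were. The mean of the replicate 1 libraries minus that of the others was -0.77 for ICAM1, -0.69 for RELB, -0.63 for IL1B, -0.58 for TNFAIP3 and -0.40 for IL32 on the log2(CPM + 1) scale. It was between -0.15 and 0.11 for the other 5 genes. For IL1B and IL32 this offset differed between the groups: it was -0.95 in pre-dose and -0.32 in untreated libraries for IL1B, and -0.10 in pre-dose and -0.69 in untreated libraries for IL32. For those 5 low genes this offset was larger than the difference between the groups, whose sizes ran from 0.26 to 0.45. The part of the offset in the results was not tested beyond the fits without replicate 1 and with the replicate block.

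Levels of the 10 genes across libraries were compared by Pearson correlations over 6 libraries that share their treatment and replicate offsets. RELB, TNFAIP3 and ICAM1 varied together, with correlations of 0.98 (RELB and TNFAIP3), 0.95 (RELB and ICAM1) and 0.94 (TNFAIP3 and ICAM1). NFKB1 and IL32 had 0.98, although NFKB1 varied far less. These sets were not separate, as NFKB1 and IL32 correlated with RELB, TNFAIP3 and ICAM1 at 0.82 to 0.89. IL1B and RELA ran opposite to each other, at -0.96. Among all other genes tested, those whose pattern was most like that of NFKBIA included PLXND1 (0.997), PPIB (0.992), AP001062.1 (0.989) and BEX1 (0.988). PLXND1, a receptor for semaphorins, averaged 175 CPM in pre-dose and 199 CPM in untreated libraries.

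The wider pathway was read from a list of 46 signalling genes, of which 40 were measured. In limma-trend 0 of the 40 passed after adjustment and 1, TRAF3, was lower at an unadjusted p of 0.05. Over all genes 0.808% were lower and 1.25% higher at that level, 2.06% in either direction. Their median log2 difference was -0.015, against -0.0013 over all genes tested, and 22 of 40 were below 0, as 50.6% of all genes were. TRAF3, a ubiquitin ligase adaptor that restrains the alternative branch, averaged 57.2 ± 2.26 CPM in pre-dose and 64.9 ± 1.04 CPM in untreated libraries (SD, n = 3 each). Its log2 difference was -0.18 (unadjusted p = 0.0163 in limma-trend). All its pre-dose libraries lay below all untreated ones, as they did for 3.19% of all genes tested. Next lower was TNIP1, which binds A20, with 130 ± 3.30 CPM in pre-dose and 143 ± 7.62 CPM in untreated libraries. After it came BIRC3, a ubiquitin ligase of the TNF receptor complex, with 0.768 ± 0.256 and 1.33 ± 0.504 CPM in the same order (SD, n = 3 each). BIRC3 lay near the filter of 1 CPM. Its groups overlapped, with 0.547 to 1.05 CPM in pre-dose and 0.764 to 1.73 CPM in untreated libraries. Higher ones were led by CYLD, a deubiquitinase that dampens signalling, with 78.3 ± 4.64 CPM in pre-dose and 71.2 ± 2.38 CPM in untreated libraries (unadjusted p = 0.0778 in limma-trend). IKBKB, the catalytic IkB kinase, averaged 68.6 ± 1.77 CPM in pre-dose and 64.1 ± 0.321 CPM in untreated libraries, and RNF31, of the linear ubiquitin ligase, 38.6 ± 0.495 and 36.3 ± 2.49 CPM in the same order (SD, n = 3 each). Without replicate 1, limma-trend called 4 of the 40, all as lower: TRAF3, TNIP1, NFKBIE and the receptor gene TNFRSF12A, the last 2 of which were named after their values were seen. Over all genes 3.47% were lower and 2.89% higher in that fit. NFKBIE, which encodes the inhibitor IkB-epsilon, then differed by -0.33 with an adjusted p of 0.0368 in limma-trend.

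A further list held 52 target and inflammatory genes, of which 29 were measured. CXCL8, CXCL1, CCL20, PTGS2 and VCAM1 were among the 23 not analysed here. In limma-trend 0 of the 29 passed after adjustment, and 3 reached an unadjusted p of 0.05, where 2.06% of all genes did (0.808% lower, 1.25% higher). These were BCL2L1 and SERPINB2 as higher and KLF6 as lower. The median log2 difference of the list was -0.063, with 20 of 29 below 0, as 50.6% of all genes were. BCL2L1, the gene of the survival protein BCL-XL, averaged 146 ± 12.6 CPM in pre-dose and 122 ± 6.19 CPM in untreated libraries (SD, n = 3 each; log2 difference 0.26, unadjusted p = 0.0126 in limma-trend). SERPINB2, an inhibitor of plasminogen activators, averaged 7.84 ± 2.14 CPM in pre-dose and 4.85 ± 0.989 CPM in untreated libraries (SD, n = 3 each; log2 difference 0.58). KLF6, a zinc finger transcription factor, averaged 80.3 ± 6.39 CPM in pre-dose and 92.6 ± 5.91 CPM in untreated libraries (SD, n = 3 each; log2 difference -0.21). CD44, a hyaluronan receptor, averaged 859 ± 26.9 CPM in pre-dose and 791 ± 13.3 CPM in untreated libraries. All its pre-dose libraries lay above all untreated ones, as they did for 3.36% of all genes tested. TIFA, a TRAF adaptor, averaged 7.86 ± 0.450 CPM in pre-dose and 9.29 ± 1.40 CPM in untreated libraries, and TNFAIP2 29.1 ± 1.32 and 31.2 ± 1.78 CPM in the same order (SD, n = 3 each). Without replicate 1, limma-trend called 8 of the 29, with BCL2L1, SERPINB2, CD44 and NINJ1 as higher and KLF6, PLAU, TNC and the chemokine gene CCL2 as lower, where 2.89% of all genes were higher and 3.47% lower. NINJ1, PLAU, TNC and CCL2 were named after their values were seen. CCL2 had 6.06 CPM in pre-dose replicate 1 and 6.46 CPM in untreated replicate 1, and its offset in the replicate 1 libraries was -1.56 on the log2(CPM + 1) scale.

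**Figure D5:**
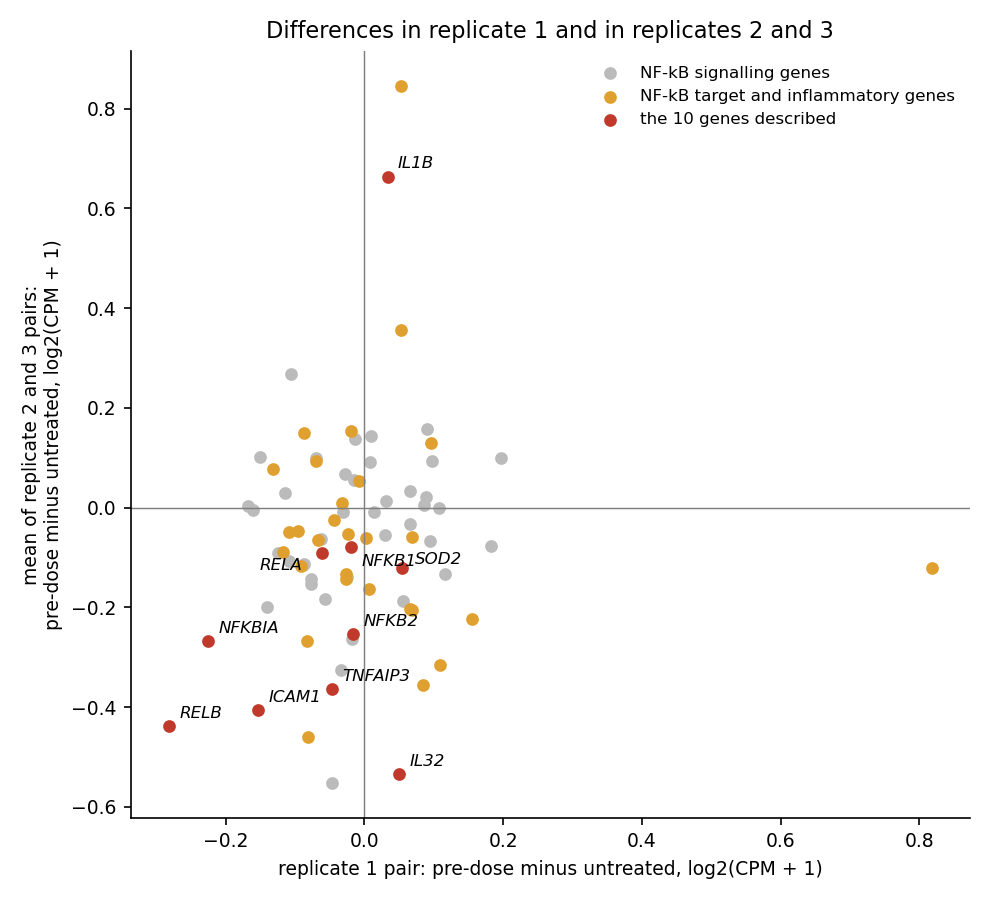
Pre-dose minus untreated difference on the log2(CPM + 1) scale in the replicate 1 pair (horizontal axis) and as the mean of the replicate 2 and 3 pairs (vertical axis), 1 point per gene, for the 10 genes (red), 40 signalling genes (grey) and 29 target and inflammatory genes (orange). RELB, ICAM1, NFKBIA, TNFAIP3, NFKB2, RELA and NFKB1 are below 0 on both axes. IL32, IL1B and SOD2 are above 0 in the replicate 1 pair, at 0.050, 0.033 and 0.054.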

How the data were processed

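Per the submitters' processing notes, the tools included limma, edgeR, DRAGEN and bcl2fastq and the genome build was hg38; counting, strand setting, annotation and tool versions are not given in what was used here. The authors deposited 1 table with log2 CPM values of 6 libraries. Read with an offset of 0.5 reads, the lowest value of each column gives the effective total of the library (3 counts are then 0.0944 to 0.114 CPM, counting error alone). Of the values under 200 reads, 57.6 to 60.0% lay within 0.05 of a whole read, so these were estimated counts, and no count test was run. The authors' own comparison, in the same deposited table, gives log2 fold changes, p-values, a moderated statistic and a signed linear fold change (both treated as a score, per the file headers). Its sign is untreated minus pre-dose and was turned here.

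The 77 rows with a repeated identifier were dropped. CPM was computed as 2 to the power of the deposited value. The test was limma-trend (limma 3.58.1, R 4.3.3), two-sided, on log2(CPM + 1). This pseudocount understates changes of low genes. Genes under a mean of 1 CPM were left out. The Benjamini-Hochberg adjustment covered all genes tested, and the threshold was 0.05. The fit was also run on simulated data with changes larger than those of the genes described and no shared replicate offset. That run does not measure the error of the fit in these libraries. Alternatives were another pseudocount, the deposited log2 values, no filter, another scaling, the replicate block, each library left out, replicates 2 and 3 only, and library quality weights (gene by gene, chosen after the default estimate, which did not converge, had been seen). Replicate numbers come from the labels, which do not say that a number marks a shared culture or day. Across genes, deviations from the group means correlated at 0.66, 0.45 and 0.18 for same-numbered libraries 1, 2 and 3, all over the limit of 0.1 used here, so same-numbered libraries were treated as pairs. Pre-dose replicate 2 with untreated replicate 3 reached 0.52, and pre-dose replicate 3 with untreated replicate 2 reached 0.28. Both also passed the limit, so it could not decide the pairing of replicates 2 and 3, which is an assumption.

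The genes and lists were chosen with earlier results of these data known. Of each wider list, the genes named were those past the threshold or, where none passed, in each direction the 3 lowest by unadjusted p; the 5 genes most like NFKBIA were taken by Pearson correlation. One of these 5 and 1 marker gene are not reported here. Positions and exon lengths came from GENCODE 29 on GRCh38, and promoters from RefSeq (GRCh38.p14).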

Additional observations from a re-analysis of the deposited data

How the results depend on the processing

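Each of the 10 genes kept its direction under every alternative run. With a pseudocount of 0.25 CPM, the log2 values as deposited, no filter on low values, another scaling or the replicate block, 0 of the 10 genes and 0 of all genes passed in limma-trend. At an unadjusted p under 0.05 the fit of 3 against 3 libraries had 280 genes, and the replicate block 1443. With the replicate block the differences stayed at -0.25 for NFKBIA, -0.18 for NFKB2, -0.39 for RELB and 0.45 for IL1B, and no call changed.

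In replicates 2 and 3 only, limma-trend called 866 genes, among them 5 of the 10 (NFKB2 at -0.25, RELB at -0.44, NFKBIA at -0.27 and IL32 at -0.53 as lower, IL1B at 0.66 as higher), 4 signalling genes and 8 target genes. With library quality weights, which were lowest for pre-dose and untreated replicate 1 (0.209 and 0.231), it called 189 genes, among them 3 of the 10 (NFKB2 at -0.26 and NFKBIA at -0.29 as lower, IL1B at 0.61 as higher), 1 signalling gene and 2 target genes. The adjusted p of NFKBIA, IL1B and NFKB2 then lay close to the threshold, at 0.0486, 0.0497 and 0.0397. This gene-by-gene estimate was added after the data were seen, because the default estimate did not converge and put a weight of 28.8 on pre-dose replicate 3. The default weights called 3744 genes, among them 9 of the 10 (NFKB2 at -0.30, RELA at -0.084, RELB at -0.58, NFKBIA at -0.34, TNFAIP3 at -0.49, IL32 at -0.48, SOD2 at -0.11 and ICAM1 at -0.34 as lower, IL1B at 0.58 as higher), 19 signalling genes and 15 target genes.

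Leaving out 1 library gave 0 calls each time. The differences ran from -0.31 to -0.21 for NFKBIA, -0.22 to -0.13 for NFKB2, -0.64 to -0.18 for RELB, -0.50 to -0.11 for TNFAIP3, -0.57 to -0.22 for IL32, -0.62 to -0.11 for ICAM1, 0.26 to 0.77 for IL1B, -0.12 to -0.049 for RELA, -0.089 to -0.042 for NFKB1 and -0.096 to -0.043 for SOD2. For RELB, IL32, ICAM1, TNFAIP3, NFKBIA and NFKB1 the largest size came without untreated replicate 1. In each of them that library was the lowest untreated one. Leaving it out raised the untreated mean while pre-dose replicate 1 stayed in the fit. Why that library was low was not tested. ICAM1 had the fewest estimated reads of the 10, 21 to 69 a library; the part of depth in its result was not tested.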
